A study of Mus musculus with 36 samples.

Results

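The interleukin 1 family ligand Il33 was described together with 8 of its relatives, the ligands Il1a, Il1b and Il18, the antagonist Il1rn, and the receptor chains Il1rl1, Il1rap, Il1r1 and Il1r2. The 9 genes are known parts of the family, and the set was chosen because Il33 moved with diet and with shCD36 in these same arrays. The values of Il33 are therefore a description and carry no test. Of the 9 genes, 8 had a probe set named in the annotation used here, 14 probe sets in all, out of 17097 genes on the array. Il1rl1, the receptor of Il33, had no named probe set and was not analysed here. Of the 8, 7 were among the 12823 genes tested, which were those with a mean of at least 5.19 log2 over all arrays; Il18 was below that level.

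The samples were 36 mouse arrays of cells that the labels call the neural fraction of the stroma of oral carcinoma xenografts. The host was the NOD-SCIDγ (NSG) mouse, a strain without functional T, B and natural killer cells, and the tumours were human and orthotopic. The tumours came from SCC25, an established oral carcinoma line, or from the oral carcinoma line VDH15, and they carried either PLKO, the non-targeting control vector, or shCD36, a short hairpin against the fatty acid receptor CD36. Because the human tumour cells held the hairpin, the mouse gene Cd36 is no check of the labels. The diets were a control diet and PA-rich and OA-rich diets, called palmitate and oleate here. PLKO tumours under all 3 diets made up the first VDH15 experiment (4 arrays a group). Oleate was absent from SCC25 and from the second VDH15 experiment, where PLKO and shCD36 tumours were each set on control diet and palmitate (3 arrays a group). That gives 11 groups. Each is 1 labelled biological replicate, and its arrays are labelled technical replicates, so the SD given over arrays is not a spread between animals. The experiment was the unit of every test, with n = 3 for palmitate over control in PLKO tumours, n = 2 for each comparison with shCD36 and n = 1 for oleate. The oleate group has no replicate of its own, so the SE and p of every oleate comparison come from the spread of the other groups and assume that it varies as they do. Whether a group's arrays came from separate mice is not given in the sources used here, so p-values measure only the spread between these samples, which may be technical.

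Levels are log2 intensities, so a difference of 1 is 2-fold. The deposited values had been adjusted so that hybridisation batch, scan batch and cell line had no remaining effect once diet and shRNA were allowed for. Levels compared between experiments are therefore partly set by that adjustment, and differences within an experiment are the firmer measure. Array medians lay between 5.98 and 6.04. As a background level, the 83 probe sets of olfactory and vomeronasal receptors had a median of 4.25 and a 95th percentile of 5.62. Markers of several cell types were well above it. Krt5 and Krt14, keratins of basal epithelium, averaged 12.6 each, the collagen gene Col1a1 12.3 and the endothelial cadherin Cdh5 11.1. Not every marker of these types was: the fibroblast gene Pdgfra (4.83) and the macrophage gene Adgre1 (4.81) were below the receptors' 95th percentile. Among glial markers Sox10 averaged 6.85 and Ngfr 7.78, while S100b was below that percentile, as were the neuronal genes Snap25 and Elavl4. These single markers were picked from the marker lists after the files had been read. In bulk RNA such as this, fewer cells of a type and less RNA per cell cannot be told apart.

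Il33 is held in the nucleus of epithelial, endothelial and other stromal cells and acts as an alarm signal when cells are damaged. It binds Il1rl1, also called ST2, which pairs with the shared chain Il1rap. Il1a and Il1b bind Il1r1, again with Il1rap. Il1r2 binds the same ligands without signalling and works as a decoy, and Il1rn occupies Il1r1 without activating it. Both branches signal through Myd88 and the Irak kinases to NF-kappaB. Il1b and Il18 are made as precursors that inflammasome caspases cut.

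The promoters of Il33 and Il1rn are shown because Il1rn had the group means most like those of Il33 among the other members. RefSeq (GRCm38.p6) lists more than 1 transcription start for each. The sequences are the 250 bases before a start, 5′ to 3′ on the gene's plus strand, at chr19:29924863-29925112 and chr19:29945540-29945789 for starts 1 and 2 of Il33, and chr2:24336610-24336859 and chr2:24345121-24345370 for starts 1 and 3 of Il1rn. Start 2 of Il1rn, whose window overlaps that of start 3, held no match and is not shown. Capitals mark a match to TATAAA, to the AP-1 motif TGANTCA or to the NF-kappaB motif.
Il33 start 1: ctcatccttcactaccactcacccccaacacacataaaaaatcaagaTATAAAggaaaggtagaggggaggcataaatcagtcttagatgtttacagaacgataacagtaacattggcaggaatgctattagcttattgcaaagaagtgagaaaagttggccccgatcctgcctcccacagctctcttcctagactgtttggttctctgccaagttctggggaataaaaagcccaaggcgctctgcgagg
Il33 start 2: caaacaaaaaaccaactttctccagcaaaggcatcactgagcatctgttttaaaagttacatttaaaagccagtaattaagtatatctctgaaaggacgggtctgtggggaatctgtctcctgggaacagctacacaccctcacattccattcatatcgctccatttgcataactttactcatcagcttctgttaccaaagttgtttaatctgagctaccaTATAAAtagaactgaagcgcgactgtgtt
Il1rn start 1: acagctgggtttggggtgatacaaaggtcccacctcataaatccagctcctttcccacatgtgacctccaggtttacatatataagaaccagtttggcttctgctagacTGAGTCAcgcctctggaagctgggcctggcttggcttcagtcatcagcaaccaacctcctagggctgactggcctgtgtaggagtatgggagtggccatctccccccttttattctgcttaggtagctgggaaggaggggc
Il1rn start 3: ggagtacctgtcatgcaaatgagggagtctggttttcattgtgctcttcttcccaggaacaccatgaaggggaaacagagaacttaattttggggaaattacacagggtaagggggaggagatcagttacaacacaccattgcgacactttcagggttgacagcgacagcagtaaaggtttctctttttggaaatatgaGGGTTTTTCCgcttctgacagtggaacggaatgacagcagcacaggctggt
Motifs were searched on both strands. TATAAA lay 29 to 24 bases before start 2 of Il33 and 203 to 198 bases before start 1, and 12.4% of the 32851 promoter windows of this length hold it. The AP-1 match TGAGTCA lay 141 to 135 bases before start 1 of Il1rn, and 6.75% of windows hold that motif. The NF-kappaB match GGGTTTTTCC lay 51 to 42 bases before start 3 of Il1rn, and 1.41% of windows hold that motif. These matches describe letters only.

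Il33 (1416200_PM_at) was lowest in the shCD36 tumours on the control diet and high in the same tumours on the palmitate diet. In the SCC25 experiment its arrays read 8.86, 8.45 and 8.92 in PLKO tumours on control diet and 7.68, 7.52 and 7.75 on palmitate. In shCD36 tumours they read 7.003, 7.14 and 7.15 on control diet and 8.66, 8.98 and 8.86 on palmitate. So palmitate arrays were all below control arrays in PLKO tumours and all above them in shCD36 tumours. The differences were −1.09 log2 in PLKO and 1.73 log2, or 3.33-fold, in shCD36 tumours.

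In the second VDH15 experiment the PLKO arrays read 8.61, 8.61 and 8.42 on control diet and 8.48, 8.20 and 8.32 on palmitate. These groups overlapped, with a difference of −0.21 log2. The shCD36 arrays read 5.97, 7.03 and 7.12 on control diet and 8.70, 8.92 and 8.58 on palmitate. They did not overlap and differed by 2.03 log2, and 1 control array stood more than 1 log2 below the other two.

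In the first VDH15 experiment, which had no shCD36 tumours, Il33 read 8.74, 8.43, 8.38 and 8.46 on control diet, 7.80, 8.14, 8.08 and 8.52 on palmitate and 7.81, 7.66, 7.93 and 7.87 on oleate. Oleate arrays were all below control arrays, by a mean of 0.69 log2, while palmitate arrays overlapped both. The palmitate difference was −0.40 and −0.34 log2 within the 2 scan batches of that experiment, and the oleate difference −0.83 and −0.55.

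**Figure D1:**
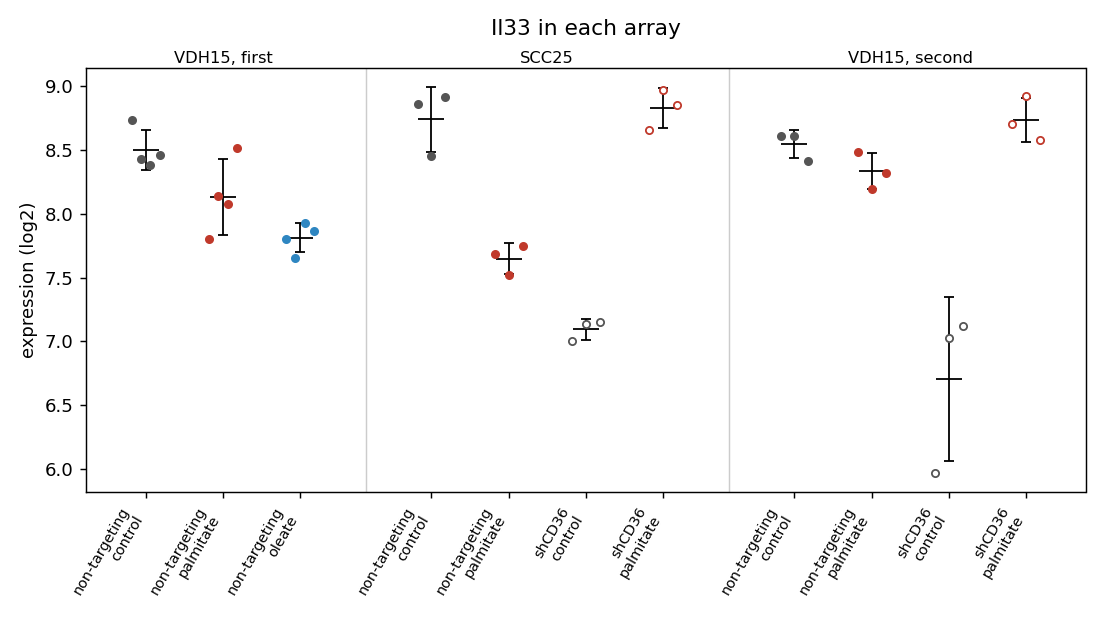
Il33 expression (log2) in each of the 36 arrays, by group and experiment. Points are arrays, filled for PLKO (non-targeting) and open for shCD36 tumours, grey for control, red for palmitate and blue for oleate diet; the bar is the mean ± SD over arrays. The shCD36 control groups are lowest, at means of 7.10 and 6.71, and the shCD36 palmitate groups lie at 8.83 and 8.74.

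Fitted over all experiments with limma, the palmitate difference of Il33 was −0.56 ± 0.20 log2 (SE, n = 3) in PLKO tumours and 1.88 ± 0.24 (n = 2) in shCD36 tumours. The difference between those values was 2.44 ± 0.31. On the control diet shCD36 tumours were 1.70 ± 0.23 log2 lower than PLKO tumours, and on palmitate they were 0.74 ± 0.23 higher. The oleate difference was −0.78 ± 0.31 (n = 1), and palmitate over oleate 0.22 ± 0.31. These comparisons share groups with each other and are not separate evidence, and fitted values can differ from the plain differences within experiments. The alternative fits reuse the arrays in which Il33 was chosen, so they describe the processing only and add no support. Signs held in all alternative fits run, with ranges of −0.73 to −0.29, 1.70 to 2.03, 2.22 to 2.60, −1.88 to −1.41 and 0.44 to 1.00 in the order given, and −0.87 to −0.65 and 0.14 to 0.36 for the oleate comparisons.

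In order of level, the 11 group means of Il33 ran from 6.71 (shCD36 control, second VDH15) and 7.10 (shCD36 control, SCC25) to 7.65 (PLKO palmitate, SCC25), 7.82 (oleate) and 8.13 (PLKO palmitate, first VDH15). Above these came 8.33 (PLKO palmitate, second VDH15), 8.502 and 8.55 (PLKO control, first and second VDH15), 8.74 (shCD36 palmitate, second VDH15), 8.74 (PLKO control, SCC25) and 8.83 (shCD36 palmitate, SCC25). Among neighbours, only 7.10 and 7.65 were separated without overlap of their arrays. The 5 gaps between neighbours that were smaller than the larger SD were those from 6.71 to 7.10, from 8.13 to 8.33, from 8.502 to 8.55, and between the 3 highest means.

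Among the other members, 1 of 6 tested was called at an adjusted p under 0.05 for palmitate over control in PLKO tumours, where 6.92% of all genes were called. Their median difference was 0.03 log2, against −0.03 over all genes. None was called in the other 6 comparisons. Of all genes, 0.374% were called for shCD36 over PLKO on palmitate and 0.039% for palmitate over oleate. In the remaining 4 comparisons limma called 0 of the 12823 genes, with 282 at an unadjusted p under 0.05 for palmitate over control in shCD36 tumours, 435 for shCD36 over PLKO on control diet, 2011 for the difference of the palmitate effect and 225 for oleate over control. At that unadjusted level 1, 1, 2 and 1 of the 6 members were found there, in the same order.

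The ligand Il1a (1421473_PM_at), which like Il33 needs no inflammasome to act, averaged 8.27. Its groups did not move one way. In PLKO tumours the palmitate difference was −0.89 in the first VDH15 experiment, −0.33 in SCC25 and 0.27 in the second VDH15 experiment. In shCD36 tumours it was 0.78 in SCC25, where the arrays did not overlap, and −0.10 in the second VDH15 experiment, where they did. The fitted palmitate difference in PLKO tumours was −0.32 ± 0.24 (limma, adjusted p = 0.448). The 2 lowest of all 36 arrays, at 7.10 and 7.25, were both in the palmitate group of the first VDH15 experiment, whose other arrays read 8.45 and 8.29.

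Il1b (1449399_PM_a_at), the main secreted interleukin 1 of myeloid cells, averaged 6.45. That is above the receptors' 95th percentile (5.62) and not far above their highest probe set (6.15). Most arrays lay between 6.0 and 6.8, and 3 were above 7. They were 1 of 4 arrays on palmitate (7.90) and 1 of 4 on oleate (7.05) in the first VDH15 experiment, and 1 of 3 PLKO arrays on palmitate (7.64) in the second. The palmitate difference in PLKO tumours was 0.35 ± 0.14 log2 (limma, adjusted p = 0.170). Within single experiments it was 0.64, −0.10 and 0.51, and the groups overlapped in SCC25 and the second VDH15 experiment. Of 36 arrays, the one with the highest Il1b was also highest for the mean of the neutrophil list, at 5.93, and for its genes S100a9 (9.25) and Csf3r (6.21), and 5th for S100a8. The array with the next highest Il1b ranked 13th for the neutrophil mean, 2nd for Csf3r, 5th for S100a9 and 28th for S100a8, so these markers were not jointly high there. Csf3r averaged 5.38, below the receptors' 95th percentile. These genes were picked from the list after their values were seen, and the part of neutrophils in the result was not tested.

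Il18 (1417932_PM_at) had a mean of 5.06, below the receptors' 95th percentile, with group means from 4.58 to 5.59. It stayed out of the main test. In the fit with no filter its palmitate difference in PLKO tumours was −0.29 ± 0.17 (limma, adjusted p = 0.402) and shCD36 over PLKO on palmitate 0.65 ± 0.20 (adjusted p = 0.200).

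Il1rn (1423017_PM_a_at), the receptor antagonist, had the highest mean of the members, 9.92. In SCC25 it read 10.2, 10.1 and 10.1 in PLKO tumours on control diet and 9.83, 9.998 and 10.1 on palmitate. The shCD36 tumours read 8.99, 8.83 and 9.17 on control diet and 10.4, 10.3 and 10.2 on palmitate. The shCD36 control group was below every other SCC25 array. In the second VDH15 experiment the shCD36 arrays read 9.62, 9.44 and 9.54 on control diet and 9.96, 10.1 and 9.97 on palmitate, again without overlap. PLKO tumours there read 9.90, 9.86 and 9.86 on control diet and 10.3, 9.79 and 9.88 on palmitate, which overlapped.

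The palmitate difference of Il1rn in shCD36 tumours was 1.30 log2 in SCC25 and 0.47 in the second VDH15 experiment. The fit gave 0.88 ± 0.26 (limma, n = 2, adjusted p = 1). On the control diet shCD36 over PLKO was −1.14 and −0.34 within the experiments and −0.87 ± 0.25 fitted (adjusted p = 0.991). The palmitate effect in shCD36 minus that in PLKO tumours was 1.16 ± 0.33 (limma, adjusted p = 0.204), with adjusted p from 0.00691 to 0.868 over the alternatives; 2 of 19 called it, both taking arrays as units. None of these passed the main test. Its other 2 probe sets, 1425663_PM_at and 1451798_PM_at, gave palmitate differences of 1.10 and 1.36 in shCD36 tumours of SCC25 and 0.44 and 0.45 in those of the second VDH15 experiment.

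In PLKO tumours of the first VDH15 experiment Il1rn read 10.3, 10.3, 10.5 and 10.5 on control diet and 9.04, 9.18, 9.98 and 10.2 on palmitate, a difference of −0.78 without overlap. The fitted difference in PLKO tumours was −0.28 ± 0.21 (adjusted p = 0.454). The 2 lowest of these palmitate arrays are the 2 that were also lowest for Il1a. They belong to 3 arrays that had stood apart in earlier results of these data.

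The signalling receptor Il1r1 (1448950_PM_at) averaged 7.54 and was higher on palmitate in all 3 experiments of PLKO tumours, by 0.66, 0.47 and 0.28 log2. Arrays did not overlap in the first VDH15 experiment (7.18 to 7.46 against 7.89 to 8.03) or in SCC25 (7.27 to 7.48 against 7.83 to 7.92). They overlapped in the second VDH15 experiment. The fitted difference was 0.47 ± 0.14 (limma, adjusted p = 0.0918), which did not pass; 4 of 19 alternatives called it, with adjusted p from 0.00375 to 0.303. In shCD36 tumours the values were 0.56 and −0.17, and the fit gave 0.20 ± 0.17 (adjusted p = 1).

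The shared chain Il1rap (1421844_PM_at) averaged 7.71. In the first VDH15 experiment it read 7.49, 7.33, 7.23 and 7.34 on control diet, 8.43, 8.51, 8.12 and 8.22 on palmitate and 7.19, 7.04, 6.997 and 7.30 on oleate. The palmitate arrays were above all others, by 0.97 over control and 1.19 over oleate. Differences over control were 0.32 in PLKO tumours of the second VDH15 experiment and −0.30 in SCC25, each without overlap, so the direction was not shared. The fitted palmitate difference was 0.33 ± 0.21 (limma, adjusted p = 0.367), and palmitate over oleate 0.87 ± 0.33 (n = 1, adjusted p = 0.368). Of its other 4 probe sets, 1421843_PM_at averaged 5.76 and the remaining 3 were below the receptors' 95th percentile, at 3.80 to 4.50.

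The decoy receptor Il1r2 (1419532_PM_at) was the member called. In SCC25 the PLKO arrays read 7.12, 7.02 and 7.25 on control diet and 5.95, 6.19 and 5.75 on palmitate. In the second VDH15 experiment they read 7.18, 7.07 and 7.19 on control diet and 4.69, 6.47 and 6.83 on palmitate. Palmitate arrays lay below all control arrays in both experiments, by 1.16 and 1.15 log2. The palmitate means, 5.97 and 5.997, lie between the receptors' 95th percentile (5.62) and their highest probe set (6.15), so these groups are near background. The array at 4.69 is below that percentile and is 1 of the 3 that had stood apart in earlier results of these data. In the first VDH15 experiment control arrays read 6.62, 6.71, 6.49 and 6.80 and palmitate arrays 6.11, 6.12, 5.83 and 7.81, which overlapped; 3 were low and 1 was the highest of all 36. The palmitate difference there was 0.41 in 1 scan batch and −0.77 in the other.

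Il1r2 fell by 0.83 ± 0.19 log2 (SE, n = 3, limma, adjusted p = 0.0497) on palmitate in PLKO tumours. That value sits at the threshold. Of 18 alternatives 11 did not call it, with adjusted p from 0.00971 to 0.401, and without the 3 arrays that had stood apart the difference was −0.50 (adjusted p = 0.244). Without the SCC25 experiment it was −0.67 (adjusted p = 0.381), and without the second VDH15 experiment −0.67 (adjusted p = 0.401). Each of those fits called 0 of all 12823 genes, so the lost call is not particular to Il1r2 there. Without array 1 of every group the difference of Il1r2 was −0.57 (adjusted p = 0.142). Without array 2 or array 3 of every group it was −0.94 or −0.86 (adjusted p = 0.0671 and 0.0872).

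In shCD36 tumours the palmitate difference of Il1r2 was −0.02 in SCC25 and −0.17 in the second VDH15 experiment, with overlap in both. On palmitate shCD36 over PLKO was 0.77 ± 0.22 (limma, adjusted p = 0.155), and the difference of the palmitate effect was 0.74 ± 0.30 (adjusted p = 0.310), so the effects were not shown to differ. Oleate arrays read 5.55, 5.49, 6.41 and 6.21, all below the control arrays of that experiment, with means of 5.91 on oleate and 6.65 on control diet. The fitted difference, which also uses the other experiments, was −1.06 ± 0.30 (n = 1), larger than the difference of those means.

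**Figure D2:**
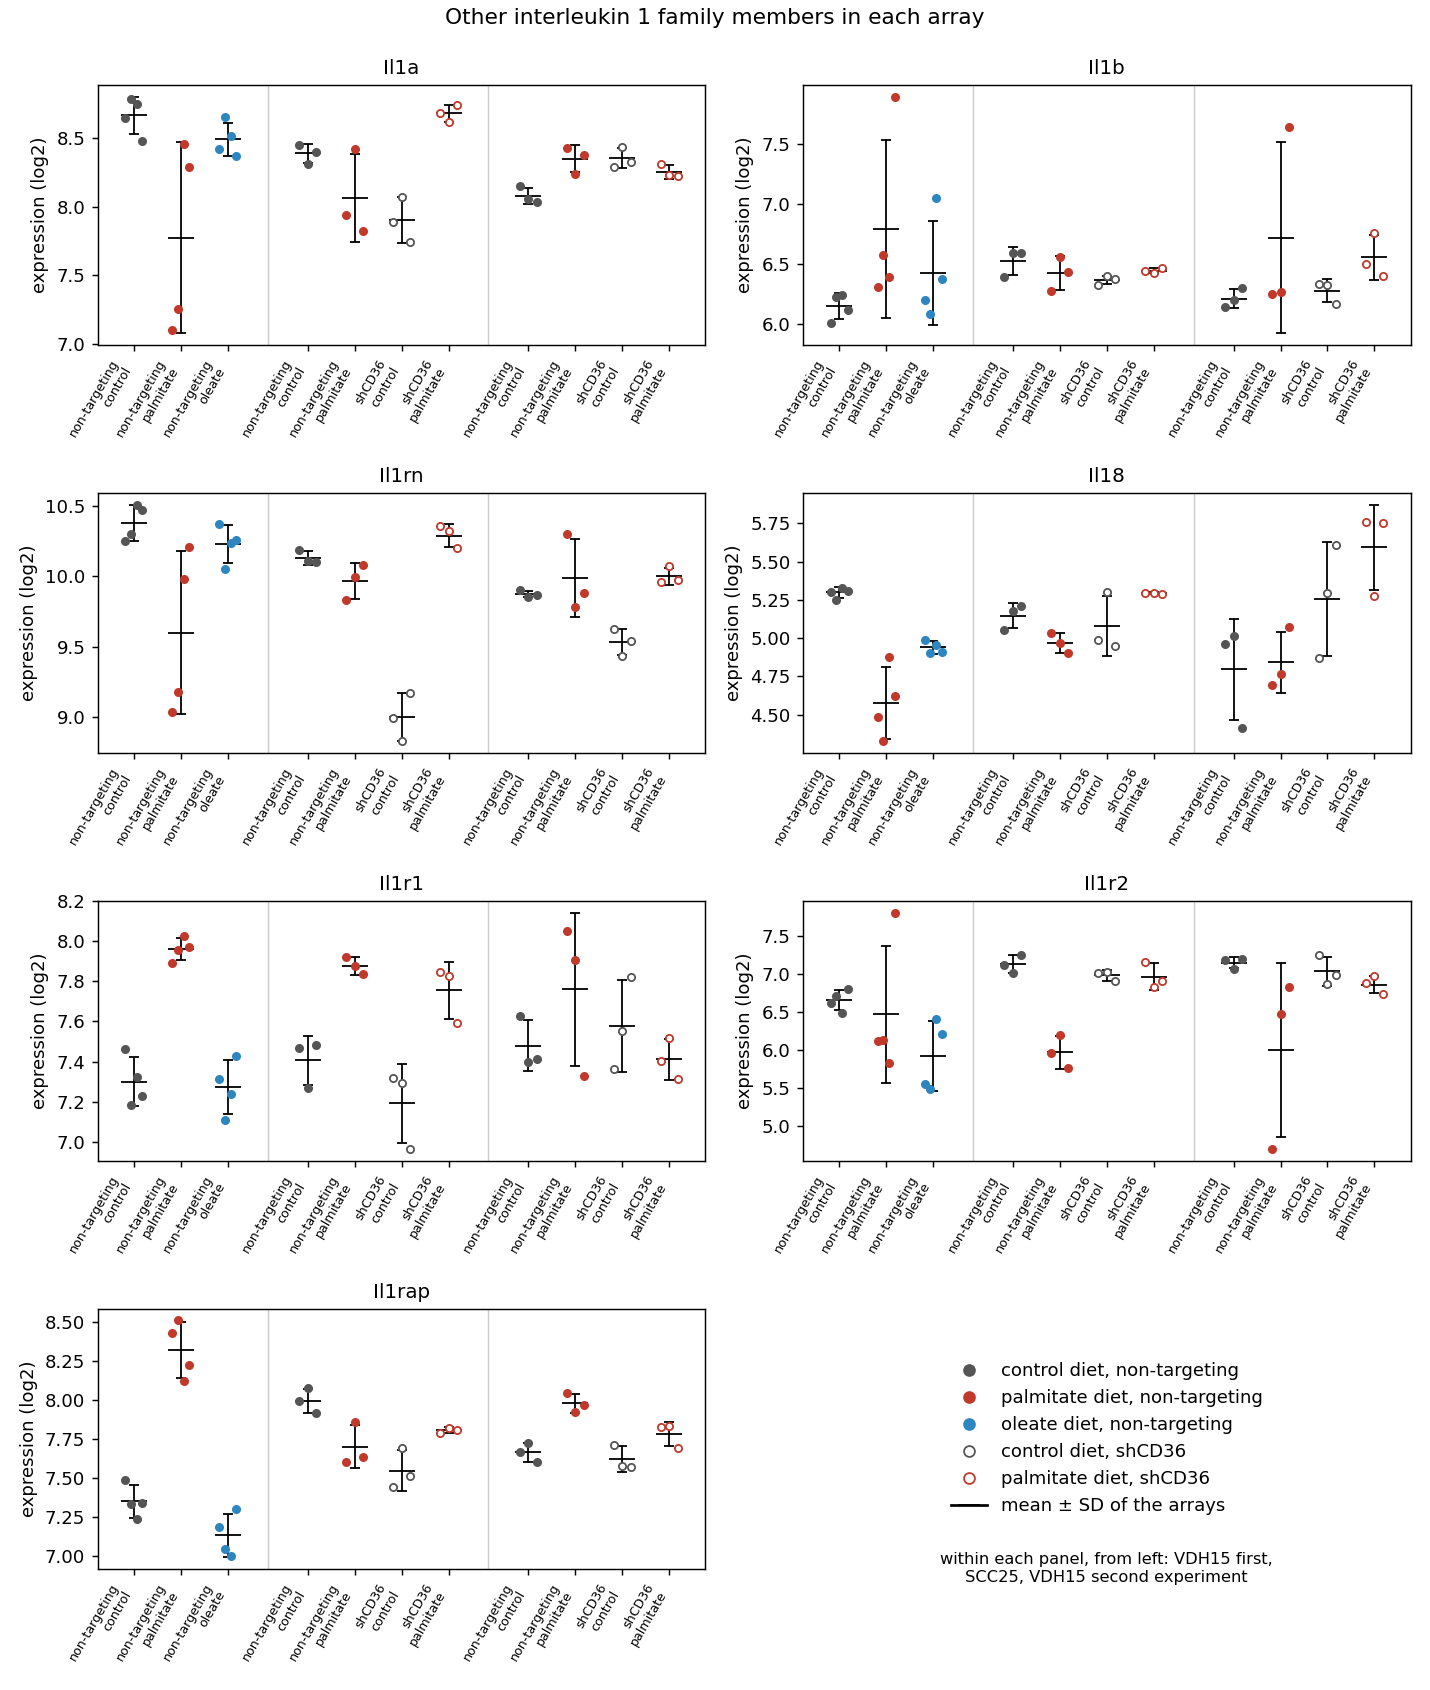
Expression (log2) of the other 7 measured members in each array, 1 panel per gene with its own axis, with groups in the order first VDH15, SCC25, second VDH15 experiment. Points are arrays and bars the mean ± SD over arrays; within panels, Il1rn is lowest in the shCD36 control group of SCC25 (8.997), Il1r2 is low in the PLKO palmitate groups of SCC25 (5.97) and the second VDH15 experiment (5.997), and 3 arrays of Il1b lie above 7.

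Set side by side, Il33, Il1rn and Il1b were higher on palmitate in shCD36 tumours of both experiments without overlap of arrays. For Il1b the differences were small, at 0.08 log2 in SCC25 and 0.28 in the second VDH15 experiment. In PLKO tumours Il33 was lower in all 3 experiments, while Il1rn was lower in 2 of 3. Il1r2 was lower and Il1r1 higher in all 3 by their means. For Il1r2 the first VDH15 experiment had overlapping arrays and close means, 6.47 on palmitate and 6.65 on control diet. For Il1r1 the arrays of the second VDH15 experiment overlapped. Il1a, Il1b, Il18 and Il1rap had differences of both signs among the 3 experiments of PLKO tumours.

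**Figure D3:**
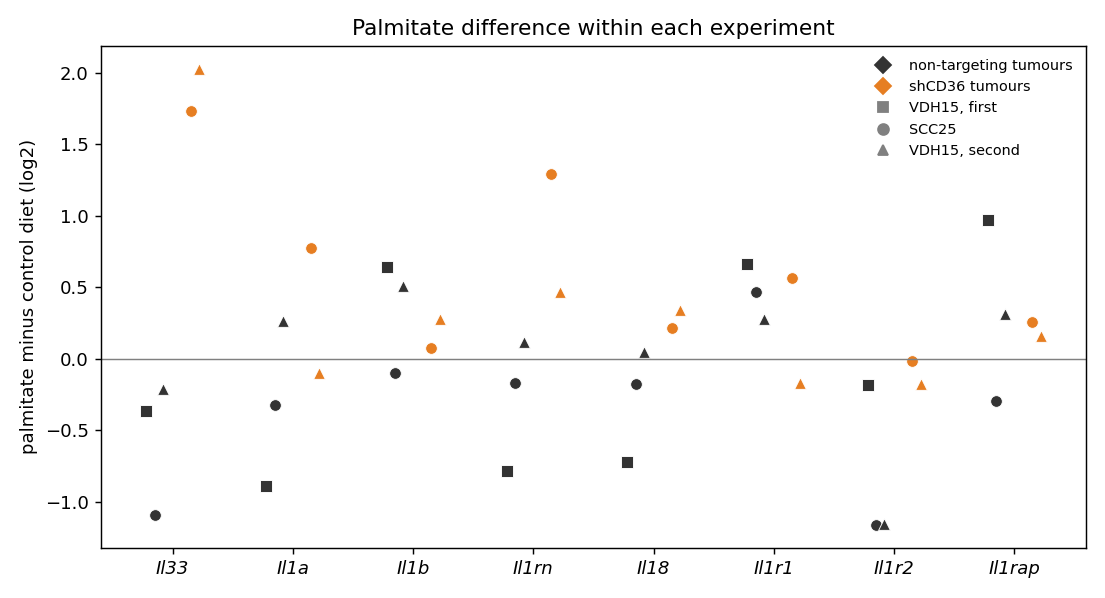
Palmitate minus control diet (log2) of each member within each experiment, dark for PLKO (non-targeting) and orange for shCD36 tumours, with squares for the first VDH15, circles for the SCC25 and triangles for the second VDH15 experiment. Il33 lies between −1.09 and −0.21 in PLKO tumours and at 1.73 and 2.03 in shCD36 tumours; Il1r2 lies at −1.16 and −1.15 in 2 PLKO experiments.

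The members lie in clusters on the genome. Il1r2 and Il1r1 are adjacent on chromosome 1, followed by Il1rl2 and Il1rl1, and Il1a and Il1b are adjacent on chromosome 2. The neighbours did not share a direction: Il1r2 was lower and Il1r1 higher on palmitate in PLKO tumours. Il33 is on chromosome 19, Il1rap on 16 and Il18 on 9.

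The genes whose means over the 11 groups were most like those of Il33, by Pearson's r, were Sec24b (0.918), Sptlc2 (0.912), Sprr2a1 (0.908), Dapk2 (0.907), Srebf2 (0.890) and Gja10 (0.887). The groups share arrays' experiment and adjustment, and r is given as a description. Sprr2a1, a small proline-rich protein of the cornified envelope, moved over a range of 2.09 log2 between group means, almost that of Il33 (2.13). It belongs to a family of near-identical genes, so the probe set may read several. Dapk2, a calmodulin-regulated kinase, moved over 0.85. Sec24b, a coat protein of vesicles leaving the endoplasmic reticulum, Sptlc2, a subunit of the enzyme that joins palmitoyl-CoA to serine, Srebf2, a regulator of cholesterol synthesis, and the connexin Gja10 moved over only 0.15 to 0.34 log2. With deviations of the 36 arrays from their group means, r was 0.576 for Dapk2, 0.254 for Sptlc2 and 0.223 for Sprr2a1, and between −0.07 and 0.02 for the other three. Among the members Il1rn had the highest r over group means, 0.699, at rank 105 of the genes tested, and the rest lay between 0.08 and 0.35.

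**Figure D4:**
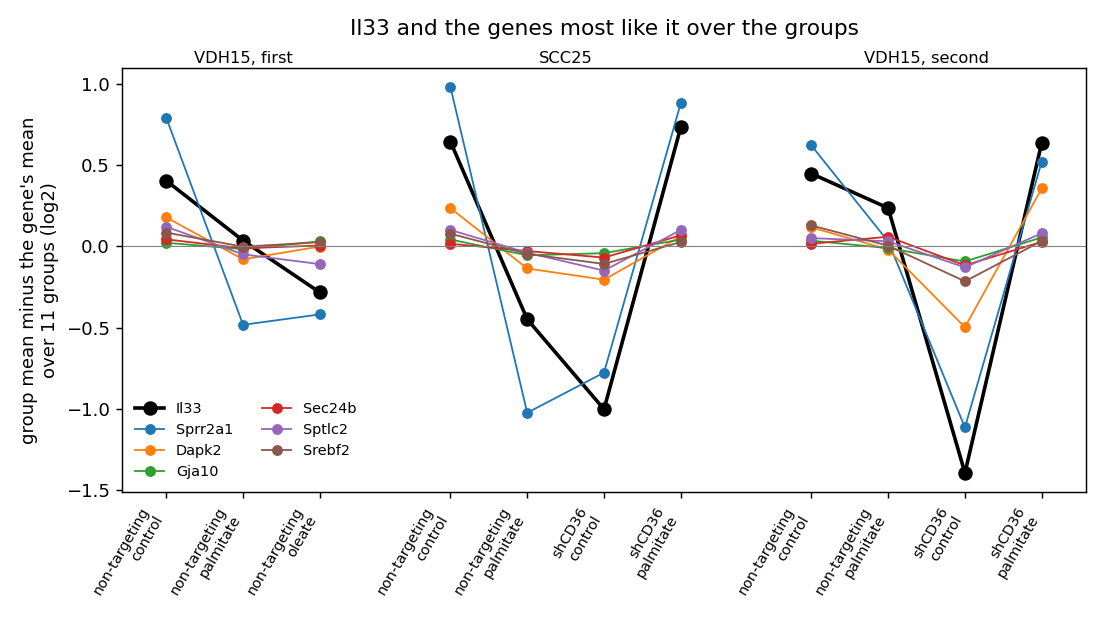
Group mean minus the gene's mean over the 11 groups (log2) for Il33 (black) and the 6 genes with the highest r; lines join groups within an experiment only. Sprr2a1 has a range of 2.09 log2 and Il33 one of 2.13, while Gja10 and Sec24b span 0.15 and 0.19.

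Genes known to be induced by interleukin 1 were the pathway list with the most calls for palmitate over control in PLKO tumours. It was also the pathway list with the most genes tested, and its share of calls was not the highest. Of 21 tested, 5 rose and 1 fell, with a median of 0.74 log2 against −0.03 over all genes, of which 6.92% were called, 468 higher and 419 lower. The neutrophil attractant Cxcl5 rose by 1.72 ± 0.25 log2 (limma, adjusted p = 0.0213), the cytokine Il6 by 1.39 ± 0.26 (adjusted p = 0.034) and Lif, of the Il6 family, by 0.70 ± 0.12 (adjusted p = 0.0293). The chemokine Ccl20 fell by 0.89 ± 0.13 (adjusted p = 0.0206). Without the 3 arrays that had stood apart, 5 rose and none fell, with a median of 0.57. On palmitate, shCD36 over PLKO gave −1.55 ± 0.31 for Il6 (adjusted p = 0.0861) and −0.64 ± 0.14 for Lif (adjusted p = 0.104), which did not pass.

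The counts of the lists that follow, 0 to 3 genes each, are to be read against the same 6.92% of all genes. Below the receptors, 0 of 15 adaptors and kinases were called (limma, palmitate over control, PLKO); nearest were Irak3, an inhibitor of the pathway, at 0.54 ± 0.13 (adjusted p = 0.0559), and the kinase regulator Ikbkg at −0.26 ± 0.07 (adjusted p = 0.0666). Of 12 NF-kappaB subunits and feedback inhibitors 2 fell. They were Bcl3, a nuclear partner of NF-kappaB, by 0.48 ± 0.10 (adjusted p = 0.0403), and the RNase Zc3h12a, by 0.39 ± 0.08 (adjusted p = 0.0365). Without the 3 arrays 1 of the 12 was called. Of 9 inflammasome and processing genes, Casp8 rose by 0.44 ± 0.09 (adjusted p = 0.0426), while the inflammasome adaptor Pycard fell by 0.63 ± 0.10 (adjusted p = 0.026) and the protease Capn1, which can cut the Il1a precursor, by 0.48 ± 0.09 (adjusted p = 0.0346). Without the 3 arrays 1 of these 9 was called, lower.

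Of 13 genes tested from a list of type 2 immune genes, 1 was called, a share near the 6.92% of all genes. It was the macrophage mannose receptor Mrc1, at 1.85 ± 0.42 (limma, adjusted p = 0.0491), and none was called without the 3 arrays. Il4ra, the receptor chain for Il4 and Il13, was 0.53 ± 0.10 log2 higher on palmitate in shCD36 tumours (adjusted p = 1) and did not pass. None of the 3 other family ligands tested was called; Il1f9, now named Il36g, differed by −0.53 ± 0.22 for palmitate over control in PLKO tumours (adjusted p = 0.183) and by 0.88 ± 0.27 in shCD36 tumours (adjusted p = 1). None of the 5 other receptors and binding proteins was called, with the Il36 receptor Il1rl2 at −0.46 ± 0.18 (adjusted p = 0.156) in PLKO tumours. In the other 6 comparisons 0 genes of all 7 pathway lists were called. At most 0.374% of all genes were called in any of those, so few calls were possible in lists of this size.

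Cell type markers moved beside the palmitate difference in PLKO tumours, where 6.92% of all genes were called. The 18 measured keratinocyte and epithelial markers had mean levels of 10 to 10.5 over control arrays and 8.62 to 9.97 over palmitate arrays, and 5 of 17 tested were called lower, among them Krt10 (−1.76 ± 0.28, limma, adjusted p = 0.0261). The 17 fibroblast markers had 8.18 to 8.998 on control and 9.17 to 10.03 on palmitate, with 9 of 15 called higher, and the 20 endothelial markers 7.82 to 8.81 and 9.21 to 9.90, with 6 of 19 called higher. The 16 macrophage and myeloid markers had 5.33 to 6.05 and 6.13 to 7.20, with 2 of 13 called higher. Without the 3 arrays that had stood apart the calls were 2 for keratinocyte and epithelial, 5 for fibroblast, 2 for endothelial and 2 for macrophage and myeloid markers. The means of the 13 Schwann cell and glial markers overlapped, at 7.29 to 7.54 and 7.09 to 7.51, while single genes moved both ways. Of 10 tested, the sodium channel Scn7a rose by 1.31 ± 0.16 (limma, adjusted p = 0.0174) and the adhesion molecule Ncam1 by 0.84 ± 0.17 (adjusted p = 0.0404), and the adhesion molecule L1cam fell by 0.57 ± 0.06 (adjusted p = 0.0146). Without the 3 arrays 1 was called higher and 2 lower. Of 9 neuron markers tested 2 fell, the tubulin Tubb3 by 1.16 ± 0.14 (adjusted p = 0.0171) and the microtubule protein Map2 by 0.69 ± 0.10 (adjusted p = 0.0213), and 2 were called lower without the 3 arrays. The part of these shifts in the values of Il33, Il1r2, Il1r1 and the interleukin 1 induced genes in PLKO tumours was not tested.

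In shCD36 tumours several marker lists also differed between diets within an experiment. The endothelial mean on palmitate minus control diet was 0.38 log2 in SCC25 (8.52 on control diet, 8.91 on palmitate) and −0.36 in the second VDH15 experiment (8.49 and 8.13), each without overlap of arrays. The fibroblast mean differed by −0.48 in SCC25, without overlap, and by −0.14 in the second VDH15 experiment, with overlap. In the same order, the macrophage and myeloid mean differed by 0.16 (no overlap) and 0.33 (overlap), and the neutrophil mean by 0.07 (overlap) and 0.49 (no overlap). The Schwann cell and glial mean differed by −0.07 and −0.08, both without overlap, and the keratinocyte and epithelial mean by 0.03 and 0.04, both with overlap. On palmitate, shCD36 over PLKO had medians of −1.17 log2 for 15 fibroblast, −1.13 for 19 endothelial and 0.32 for 17 keratinocyte and epithelial markers. On control diet they were 0.415, 0.258 and −0.159. On palmitate the fibroblast marker Postn was called lower and the glial marker L1cam higher, where 0.374% of all genes were called. Neither list held a call without the 3 arrays that had stood apart. The part of these lists in the palmitate and shCD36 differences of Il33 and Il1rn was not tested.

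**Figure D5:**
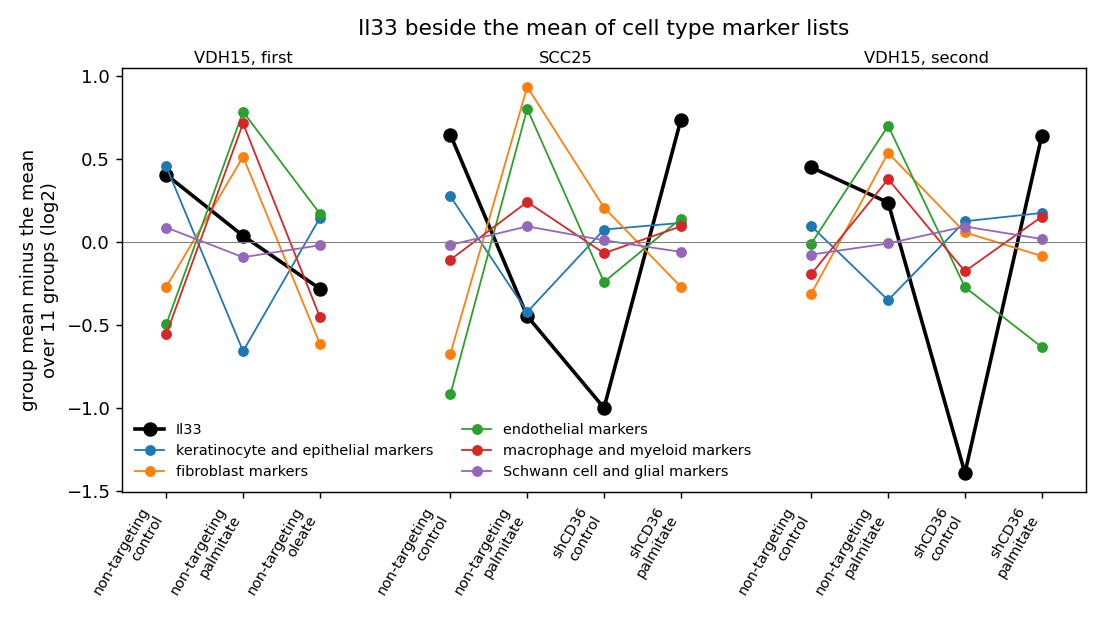
Group mean minus the mean over the 11 groups (log2) for Il33 (black) and for the mean of 5 marker lists; lines join groups within an experiment only. Il33 is lowest in the shCD36 control groups (6.71 and 7.10 log2), where the keratinocyte and epithelial mean is 10.08 and 10.03 log2; the palmitate groups of PLKO (non-targeting) tumours have that mean at 9.30 to 9.61.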

How the data were processed

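The values were log2 intensities of 36 arrays, deposited by the authors; RMA and affy are the tools that the submitters' processing notes name. Their batch adjustment is not named in those notes. It was read from the values: terms for hybridisation and scan batch and for cell line had coefficients below 1e-06 in 100% of 45141 probe sets with diet and shRNA in the model, against 0.00222% without. The annotation named 1 gene for 28898 probe sets, and the probe set with the highest mean stood for a gene. The 25% of genes with the lowest mean, under 5.19, were left out. The mean of each group's arrays entered limma 3.58.1 (R 4.3.3), 11 values per gene, with terms for arm and experiment (4 residual and 2.70 prior degrees of freedom), with Benjamini-Hochberg adjustment over 12823 genes and a threshold of 0.05; the fit was tested on simulated data. Alternatives changed the unit, terms, filter, probe sets, normalization and arrays. The members, lists and the 3 arrays left out in one alternative were chosen with earlier results of these data known. Named were all members, of each pathway list up to 4 called genes or the 1 or 2 with the smallest p, up to 3 of a marker list, and the 6 genes most like Il33. The number of arrays limits the precision.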

Additional observations from a re-analysis of the deposited data

Results flagged for a closer look

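Among 24 checks of 4 arrays each, chance is expected to single out about 1 in 20. In PLKO tumours on palmitate in the first VDH15 experiment, 1 array stood far above the other three for Il1b, at 7.90 log2, and the same array did so for Il1r2, at 7.81. The palmitate difference of Il33 had opposite signs in PLKO and shCD36 tumours in both experiments that held both, and the mean difference between the effects was 2.53 log2. That difference was not tested, because Il33 was chosen for it.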

How the results depend on the processing

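With n of 1 to 3 experiments, each call rests on few samples, and technical arrays add no biological spread. For palmitate over control in PLKO tumours 1 of 6 other members was called. With arrays as units 2 were called, Il1r1 and Il1rap, and Il1r2 was not (limma, adjusted p = 0.0566). With no experiment term 2 were called, Il1r2 among them (limma, adjusted p = 0.0106). With only the groups of the contrast, no filter, an intensity trend and robust prior, or the 3 arrays left out, 0 were called. A stricter filter on low genes also gave 0, but left Il1r2 and Il1b untested. Leaving out 1 array number or experiment gave 0 to 1. For shCD36 over PLKO on palmitate no experiment term gave 1, and leave-one-out 0 to 1. Arrays as units gave 1 for the difference of the palmitate effect and 1 for palmitate over oleate. With the array number as a replicate block the counts were again 2, 1 and 1, and Il1r2 was again not among the 2 (limma, adjusted p = 0.0519). Array numbers did not pair: same-numbered arrays had median correlations of their deviations of −0.05 to 0.03. The oleate comparisons gave no value with only their own groups or without the first VDH15 experiment. The cause of these changes was not tested.

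Of 42 differences of single members, 13 changed sign under at least 1 alternative, in 30 fits in all, none of them called. With medians over arrays, Il1b gave 0.0632 (shCD36 over PLKO, palmitate), 0.0494 (difference of the effect) and −0.00424 (oleate over control), and for shCD36 over PLKO on control diet Il1r1 gave 0.0206 and Il1r2 −0.0872. In that last comparison the mean of all probe sets gave Il1rap 0.0144, only its own groups gave Il1b −0.046 and Il1r2 −0.13, and without the 3 arrays Il1r1 was 0.00874. Only its own groups gave Il1rap 0.20 for the difference of the effect. Without the 3 arrays oleate over control was −0.094 for Il1a and −0.0905 for Il1rn. The main fit gave 0.112 and 0.10 for these, while the plain differences within the first VDH15 experiment were −0.175 and −0.153. Leave-one-out ranges that crossed 0 were −0.10 to 0.78 (Il1a) and −0.17 to 0.56 (Il1r1) for palmitate over control in shCD36 tumours, and −0.289 to 0.0605 (Il1b) for shCD36 over PLKO on palmitate. On control diet they were −0.25 to 0.12 (Il1rap), −0.046 to 0.151 (Il1b), −0.17 to 0.20 (Il1r1) and −0.13 to 0.15 (Il1r2). They were −0.48 to 0.20 (Il1rap) for the difference of the effect, and −0.0341 to 0.214 (Il1a), −0.17 to 0.27 (Il1b) and −0.0448 to 0.177 (Il1rn) for oleate over control. For palmitate over oleate Il1b gave −0.0392 to 0.443.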
